A study of Homo sapiens with 6 samples.

Results

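The glutamine metabolism and transport genes described here are 9 genes of glutamine, glutamate and aspartate handling that were chosen by symbol from the gene table, namely GLUL, GLUD1, GOT1, GOT2, GPT2, SLC1A5, SLC38A1, SLC38A2 and SLC1A3. All 9 were present among the 46427 genes of the table and all 9 passed the filter on low counts, as 16966 genes did. RNA was sequenced from MDA-MB-231, a human cell line from a metastatic breast cancer, of wild-type genotype according to the labels, which was grown in DMEM with 5.5 mM glucose and 10% fetal bovine serum. In the first group, 3 libraries came from cells treated with control-siRNA, whose target the labels do not describe. In the second group, 3 libraries came from cells transfected with an siRNA against WWTR1, the gene that encodes the transcriptional coactivator TAZ, with the same culture medium. The labels give neither the dose nor the time of the siRNA for these libraries, and a single cell line with a single siRNA product limits what the groups stand for. The siRNA-treated cultures were part of a study of cell movement after TAZ knockdown. The comparison here asks how the RNA levels of the glutamine genes differed between the groups.

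Glutamine enters cells through transporters of neutral amino acids and is turned into glutamate by glutaminases. Glutamate is then either oxidised to α-ketoglutarate by glutamate dehydrogenase or used by aminotransferases, which hand its amino group to another keto acid and so make aspartate, alanine or serine. Glutamine synthetase runs the first step backwards, and aspartate in turn feeds the synthesis of nucleotides, asparagine and arginine. YAP and TAZ act on genes through TEAD transcription factors, and several amino acid transporters and aminotransferases are also known targets of ATF4, a transcription factor that is induced by amino acid shortage.

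Of the 9 genes, 4 differed between the groups, a count that was 1 to 7 when each library was left out in turn. SLC38A2, a sodium-coupled transporter of small neutral amino acids, was 1.28-fold higher in the TAZ-siRNA libraries. GLUL, which encodes glutamine synthetase, fell to 0.743 of its control level, GOT1, the cytosolic aspartate aminotransferase, to 0.748, and GOT2, its mitochondrial counterpart, to 0.894. None of the 9 genes changed by more than 1.5-fold. The count of 4 is 44.4% of the members (1 higher, 3 lower), against 22.1% of all genes tested (3749 of 16966, of which 11.9% were higher and 10.2% were lower) in the same comparison, in which a gene was called at a Benjamini-Hochberg adjusted p under 0.05 by edgeR's quasi-likelihood test. The median log2 fold change of the members was −0.14, that of all genes tested −0.0054. In 7 of the 9 genes the values of the groups did not overlap, which was so for 39.6% of all genes tested. At an unadjusted p under 0.05, 35.8% of all genes passed. The members were chosen with earlier results of these data known, so these shares describe them and do not test them.

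The knockdown was seen first in the targeted gene. WWTR1 stood at 192, 190 and 190.0 CPM (read counts scaled to a common library size, after TMM normalization) in the control-siRNA libraries and at 17.3, 17.0 and 15.1 CPM in the TAZ-siRNA libraries. The log2 fold change was −3.53 ± 0.061 (SE, n = 3 and 3, adjusted p = 2.47e-10), which leaves 8.64% of the control level. Total counts were 49662504 to 66769103 per control-siRNA library and 48307548 to 71749634 per TAZ-siRNA library, and 3 counts corresponded to 0.0411 to 0.0618 CPM, which covers counting error only. The biological coefficient of variation was 8.04%, and replicate libraries differed by more than sampling noise (a chi-square per degree of freedom between 6.77 and 41.8). Of the TAZ-siRNA libraries, replicate 3 stood farthest from the other replicates of its group, with a median absolute log2 difference of 0.131 over genes, and replicate 2 followed with 0.104, against 0.0616 to 0.0842 for the other 4 libraries. Many of the results below are therefore also given with a library left out. The mesenchymal markers VIM (3574 ± 139 CPM with control-siRNA) and CD44 (524 ± 1.7) and the epithelial keratins KRT8 (500.1 ± 20.1) and KRT18 (557 ± 30) were both high, while the epithelial marker EPCAM was low at 1.29 ± 0.27 CPM. The hormone receptors ESR1 and PGR had at most 6 counts in a library, and ERBB2 was at 46.7 ± 1.6 CPM. Of the leukocyte markers, PTPRC and CD3E had 0 counts in every library and CD68 was at 75.7 ± 3.8 CPM. Of the endothelial markers, VWF had 0 to 21 counts, PECAM1 246 to 416 and CDH5 67 to 106. Of the 16 markers, ESR1, PGR, PTPRC, CD3E and VWF did not pass the filter on low counts. Among the others, KRT19 (epithelial, log2 fold change 0.37) and SPARC (mesenchymal, 0.74) rose and CD68 (−0.42) fell, where 22.1% of all genes tested were called. The part of these changes in the members' results was not tested. In cultured cells sequenced in bulk, less RNA per cell and fewer cells that express a gene cannot be told apart.

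The promoters of the 4 genes that differed are shown as the 250 bases before the transcription start in RefSeq (GRCh38.p14), so that the sequence next to each measured transcript can be read beside its values. All 4 genes lie on the minus strand and the sequences run 5′ to 3′ towards the start. Capitals mark a match to TGATGNAA or its reverse complement TTNCATCA, the C/EBP-ATF response element (CARE) to which ATF4 binds. They lie at chr12:46372774-46373023 (SLC38A2), chr1:182391791-182392040 (GLUL), chr10:99430625-99430874 (GOT1) and chr16:58734317-58734566 (GOT2).
SLC38A2 promoter: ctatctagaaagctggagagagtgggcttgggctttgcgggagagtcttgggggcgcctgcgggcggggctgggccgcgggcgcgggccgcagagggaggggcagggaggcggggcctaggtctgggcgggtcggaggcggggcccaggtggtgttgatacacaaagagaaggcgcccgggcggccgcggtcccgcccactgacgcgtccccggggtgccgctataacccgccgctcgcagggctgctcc
GLUL promoter: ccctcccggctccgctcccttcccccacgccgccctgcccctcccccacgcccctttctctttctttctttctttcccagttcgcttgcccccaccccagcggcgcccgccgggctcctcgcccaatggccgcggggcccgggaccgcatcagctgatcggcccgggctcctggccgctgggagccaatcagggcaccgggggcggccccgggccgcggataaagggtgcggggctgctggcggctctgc
GOT1 promoter: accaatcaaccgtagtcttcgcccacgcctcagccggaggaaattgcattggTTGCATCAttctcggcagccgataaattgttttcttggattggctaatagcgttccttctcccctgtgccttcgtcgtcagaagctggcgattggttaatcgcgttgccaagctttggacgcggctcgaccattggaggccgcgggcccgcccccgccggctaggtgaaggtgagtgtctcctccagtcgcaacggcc
GOT2 promoter: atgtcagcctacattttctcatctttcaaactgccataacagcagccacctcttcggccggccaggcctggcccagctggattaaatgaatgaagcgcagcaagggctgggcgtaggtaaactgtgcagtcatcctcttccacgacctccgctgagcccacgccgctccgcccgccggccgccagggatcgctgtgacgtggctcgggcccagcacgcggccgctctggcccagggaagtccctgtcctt

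GOT1 was the gene among these 4 with a match, at position −198 counted from the start, on the strand opposite to the gene. The promoters of SLC38A2, GLUL and GOT2 held none of the letters searched for CARE, for TEAD (GGAATG or CATTCC) or for the E-box (CACGTG) within the 300 bases of each RefSeq entry, which run from 250 bases before to 50 bases after the start. G and C made up 73.6% of the printed SLC38A2 promoter, 74.8% of that of GLUL, 62.8% of that of GOT2 and 58% of that of GOT1. RefSeq entries were matched by symbol for 8 of the 9 members, with 14 promoters in all, and GPT2 was not among them. CARE letters were in 4 of the 14 promoters and in 3.62% of all 35116 promoters of this length, TEAD letters in 2 and in 14%, and E-box letters in 1 and in 7.26%. The promoters of 1 gene are not independent of each other, and a match of letters is not a binding site. The other matches outside the printed promoters lay at the following windows of 30 bases, again with the matching letters in capitals: SLC1A5 at chr19:46784805-46784834 (TEAD) and chr19:46784894-46784923 (CARE), both on the minus strand, SLC38A1 at chr12:46266503-46266532 (CARE) on the minus strand, and SLC1A3 at chr5:36606518-36606547 (TEAD) and chr5:36596356-36596385 (CARE) on the plus strand.
SLC38A1 CARE: ctcagacccgaaTGATGAAAagggatcagc
SLC1A5 TEAD: gtgggaggccagCATTCCtcaccccgaacc
SLC1A5 CARE: ggaggaagtggcTGATGCAAgctgtccagg
SLC1A3 TEAD: ctgtgcggtttcCATTCCccactcctcctt
SLC1A3 CARE: gcaggaaatgacTGATGCAAagcagggtta

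The SLC1A5 matches belong to the start of its transcript NM_001145145, which held 2.54 ± 0.32% of the gene's TPM in control-siRNA libraries. The SLC38A1 match belongs to the start of NM_001278389, which held 6.36 ± 1.1%. For SLC1A3, the CARE match lies before a start that is outside the gene's span in the deposited table. The SLC1A3 TEAD match belongs to the start shared by NM_004172, XM_005248342, NM_001166695 and XM_011514084. In this order, these transcripts held 35.7 ± 6.8%, 14 ± 0.32%, 0% and 1.34 ± 2% of the gene's TPM in control-siRNA libraries. NM_001166695 held 15% in TAZ-siRNA replicate 1. The E-box match was at −50 of a further SLC1A5 start, that of NM_001145144, which held under 0.2% of the gene's TPM in each library.

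Of the 3 neutral amino acid transporters, SLC38A2 was higher and the others were not called. SLC38A2 (SNAT2; gene ID 54407, chr12:46358188-46372774, minus strand), which carries glutamine and alanine with sodium and is known for its induction when amino acids run short, was at 877, 845 and 793 CPM in the control-siRNA libraries and at 1155, 1028 and 1037 CPM in the TAZ-siRNA libraries. Every TAZ-siRNA library was above every control-siRNA library. The log2 fold change was 0.36 ± 0.068 (SE, 95% interval 0.21 to 0.51, adjusted p = 0.00481). It was also called in each of the other fits run, including those with 1 library left out, in which the log2 fold change was 0.30 to 0.39 (adjusted p 0.000191 to 0.0344). The exact 2-sided permutation test of its 6 values gave p = 0.1, the smallest that 3 libraries against 3 allow. SLC38A1 (SNAT1; gene ID 81539, chr12:46183063-46269149, minus strand), a transporter of the same family encoded near SLC38A2, was at 584, 585 and 566 CPM with control-siRNA and at 543, 470 and 557 CPM with TAZ-siRNA. All TAZ-siRNA values were lower, but the difference was not called, with a log2 fold change of −0.14 ± 0.070 (95% interval −0.30 to 0.010, adjusted p = 0.167). SLC38A1 was at −0.069 (adjusted p = 0.468) without TAZ-siRNA replicate 2 and at −0.19 (0.0255) without replicate 3. SLC1A5 (ASCT2; gene ID 6510, chr19:46774883-46788594, minus strand), an exchanger that imports glutamine and is often abundant in tumour cells, was at 462, 472 and 486 CPM with control-siRNA and at 383, 361 and 457 CPM with TAZ-siRNA. Its TAZ-siRNA values were also all lower, with replicate 3 close to the control range and the other libraries well under it. The log2 fold change was −0.24 ± 0.082 (95% interval −0.42 to −0.060) with an adjusted p of 0.0581, so SLC1A5 missed the threshold. It passed with DESeq2 (adjusted p = 0.0161) and with TAZ-siRNA replicate 3 left out (log2 fold change −0.34, adjusted p = 0.000125), while the other 5 fits with 1 library left out gave adjusted p of 0.124 to 0.199, with a log2 fold change of −0.17 without TAZ-siRNA replicate 2.

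**Figure D1:**
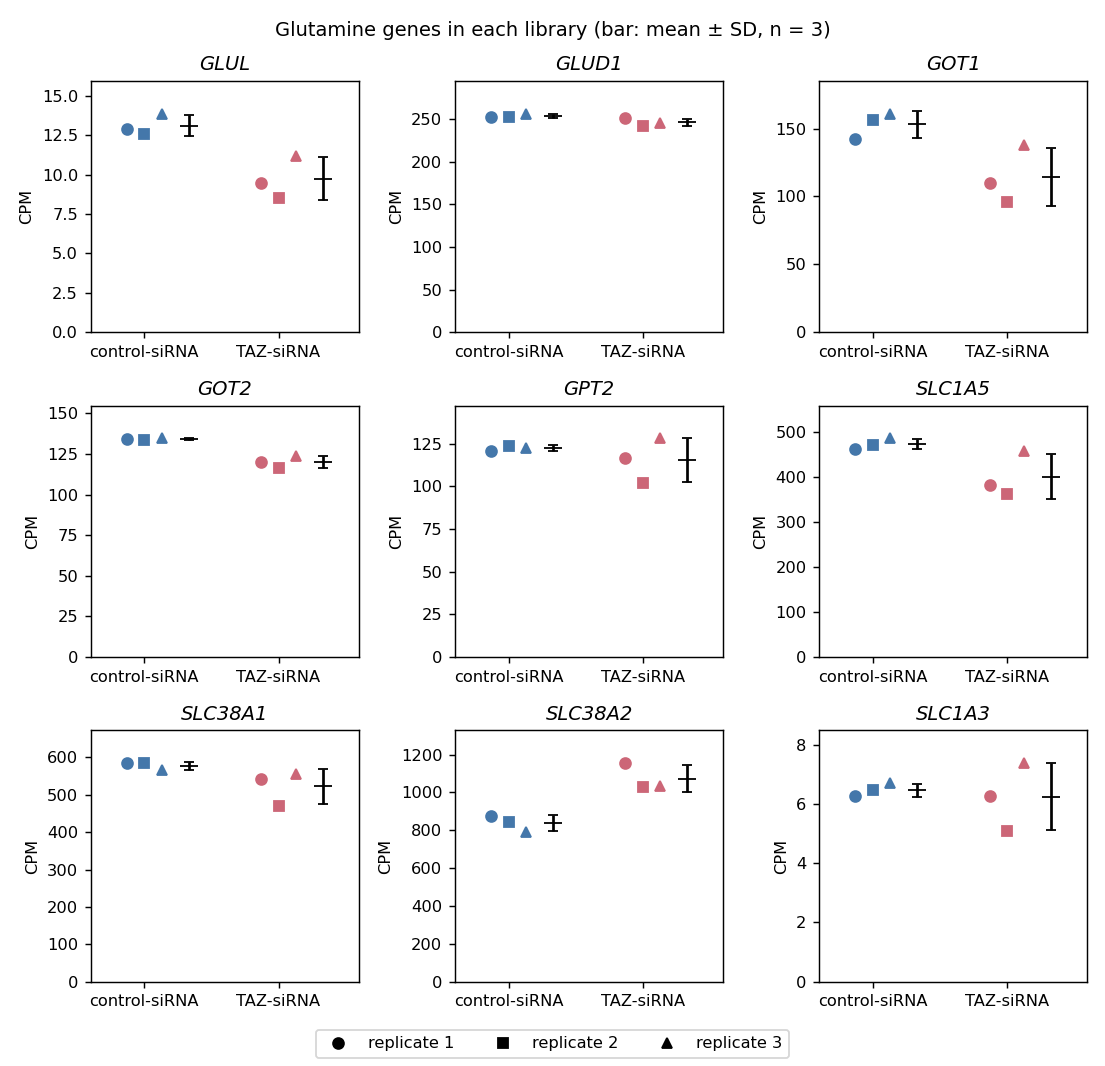
TMM-normalized read counts (CPM, linear axes from 0) of the 9 glutamine genes in each of 6 libraries of MDA-MB-231 cells, with control-siRNA in blue and TAZ-siRNA in red and the replicate given by the shape. Bars are the mean ± SD (n = 3). SLC38A2 lies higher in all TAZ-siRNA libraries (1028 to 1155 against 793 to 877 CPM), GLUL, GOT1 and GOT2 lie lower, and TAZ-siRNA replicate 2 is the lowest of its group in every panel.

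The enzymes of glutamine synthesis and glutamate oxidation were GLUL and GLUD1. GLUL (gene ID 2752, chr1:182378093-182392206, minus strand), which makes glutamine from glutamate and ammonia, was at 12.9, 12.6 and 13.9 CPM with control-siRNA and at 9.46, 8.52 and 11.2 CPM with TAZ-siRNA. All TAZ-siRNA values were below all control-siRNA values, with replicate 3 the nearest to them. GLUL had a log2 fold change of −0.43 ± 0.10 (SE, 95% interval −0.65 to −0.20, adjusted p = 0.0136). The call was kept in 4 of the 6 fits with 1 library left out and lost without control-siRNA replicate 3 (adjusted p = 0.0608) and without TAZ-siRNA replicate 1 (adjusted p = 0.0615). On the length-scaled values the difference was smaller. The TPM of GLUL was 3.83, 3.95 and 3.86 with control-siRNA and 3.49, 2.59 and 3.72 with TAZ-siRNA, and limma on log2(FPKM + 1) and on log2(FPKM + 0.1) gave log2 differences of −0.18 (adjusted p = 0.194) and −0.29 (adjusted p = 0.20). The FPKM of GLUL was 1.02 to 1.63 over the libraries, so the added 1 by itself makes the first of these differences smaller. The libraries divided the GLUL reads differently among its 4 transcripts: the share of NM_001033044, whose start is the one printed above, was 94.4, 35 and 95% of the gene's TPM with control-siRNA and 35, 97.7 and 53.4% with TAZ-siRNA. The part of this assignment in the smaller TPM difference was not tested. GLUD1 (gene ID 2746, chr10:87050202-87094843, minus strand), the mitochondrial glutamate dehydrogenase, was at 252, 253 and 256 CPM with control-siRNA and at 251, 242 and 245 CPM with TAZ-siRNA. Its groups just failed to overlap, but the TAZ-siRNA mean was 97.0% of the control-siRNA mean and the difference was not called (log2 fold change −0.043 ± 0.048, 95% interval −0.15 to 0.062, adjusted p = 0.558).

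Among the aminotransferases, which move the amino group of glutamate, both aspartate-forming enzymes fell. GOT1 (gene ID 2805, chr10:99396870-99430624, minus strand), the cytosolic enzyme of the malate-aspartate shuttle, was at 142, 156 and 161 CPM with control-siRNA and at 110.0, 95.6 and 138 CPM with TAZ-siRNA. The highest TAZ-siRNA value, in replicate 3, was just below the lowest control value. GOT1 had a log2 fold change of −0.42 ± 0.12 (95% interval −0.71 to −0.13, adjusted p = 0.0469). This call was close to the threshold: without TAZ-siRNA replicate 3 the change was −0.57 (adjusted p = 0.000105), and with any other library left out it was −0.30 to −0.47 and not called (adjusted p 0.0544 to 0.146). GOT2 (gene ID 2806, chr16:58707131-58734316, minus strand), the mitochondrial enzyme, was at 134, 134 and 135 CPM with control-siRNA and at 120, 116 and 124 CPM with TAZ-siRNA. The control-siRNA values were nearly equal, and all TAZ-siRNA values were lower. GOT2 had a log2 fold change of −0.16 ± 0.045 (95% interval −0.26 to −0.063, adjusted p = 0.0263), which ranged over −0.18 to −0.14 with 1 library left out, called only without TAZ-siRNA replicate 3 (adjusted p = 0.00293, others 0.0766 to 0.105). GPT2 (gene ID 84706, chr16:46884362-46931289, plus strand), the mitochondrial alanine aminotransferase, was at 121, 124 and 123 CPM with control-siRNA and at 116, 102 and 128 CPM with TAZ-siRNA. These groups overlapped, since TAZ-siRNA replicate 3 was above all control-siRNA libraries, and no change was called (log2 fold change −0.083 ± 0.072, 95% interval −0.24 to 0.077, adjusted p = 0.449).

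SLC1A3 (EAAT1; gene ID 6507, chr5:36606355-36688334, plus strand), a sodium-dependent importer of glutamate and aspartate, was the member with the fewest counts, 251 to 458 per library. It was at 6.25, 6.46 and 6.69 CPM with control-siRNA and at 6.28, 5.09 and 7.38 CPM with TAZ-siRNA. TAZ-siRNA libraries were thus both the lowest and the highest of all 6. For SLC1A3 the log2 fold change was −0.046 ± 0.13 (95% interval −0.33 to 0.24, adjusted p = 0.828).

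**Figure D2:**
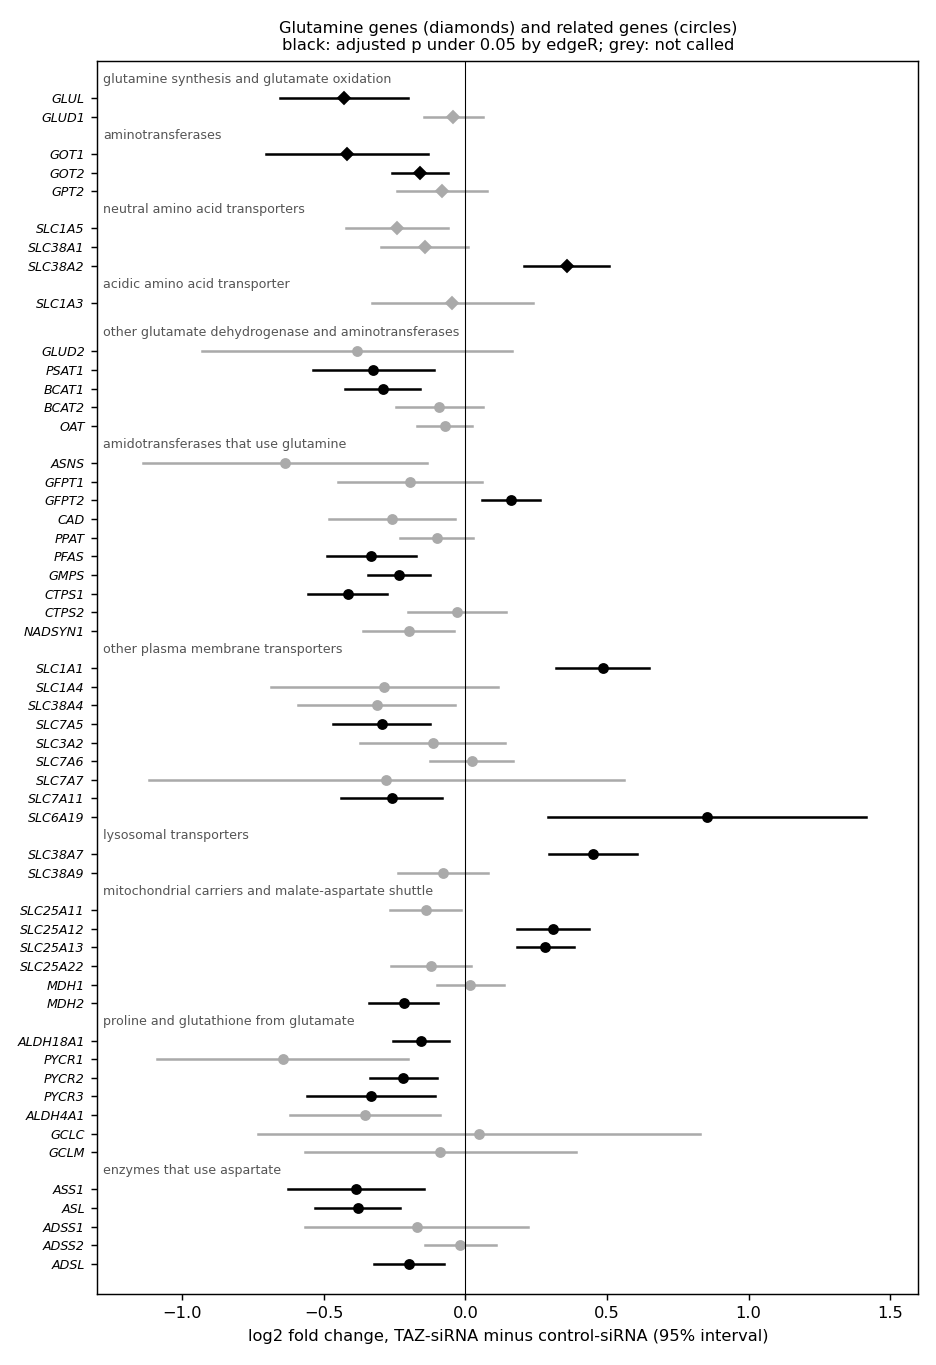
Log2 fold changes (TAZ-siRNA minus control-siRNA, n = 3 and 3) with 95% intervals from edgeR for the 9 glutamine genes (diamonds) and 44 related genes (circles), grouped by role. Black marks an adjusted p under 0.05 and grey a gene that was not called. SLC38A2, SLC1A1, SLC38A7, SLC25A12 and SLC25A13 lie to the right of 0, while most of the aminotransferases, amidotransferases and aspartate-using enzymes that were called lie to the left.

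The members' reads could be shared with other genes in few places. GLUD1 overlaps SHLD2 on the opposite strand, which had 2495 to 3839 counts, against 11951 to 18326 for GLUD1. The further overlapping genes had few counts: LOC107984261 within GOT1 had 68 to 166, LOC105378248 beside SLC38A1 had 8 to 24 and LOC107986413 within SLC1A3 had 0 to 3. Near-identical copies of GLUD1 were weakly counted, with 22 to 51 counts for GLUD2, 22 to 63 for GLUD1P3 and 1 to 4 for GLUD1P2. Of the GLUL pseudogenes, GLULP2 had 0 to 6 counts and the others 0. Reads of GLUD1 and GLUL that were placed on these copies would be a small share of either gene's counts.

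Levels between genes were compared in TPM, which scales for length. With control-siRNA, SLC38A2 (351 to 405 TPM) and SLC1A5 (356 to 364 TPM) were at the top and overlapped. GOT1 (158 to 174), GLUD1 (163 to 167) and SLC38A1 (152 to 165) followed, each overlapping the next. GOT2 (118 to 122), GPT2 (64.9 to 68.2), SLC1A3 (4.75 to 5.01) and GLUL (3.83 to 3.95) stood apart from each other. These cells thus held little RNA of glutamine synthetase and of the acidic amino acid transporter beside that of the glutamine importers. With TAZ-siRNA, SLC38A2 (465 to 562 TPM) stood above SLC1A5 (291 to 343 TPM) without overlap, and GOT1 (111 to 149) overlapped GOT2 (109 to 115). The order of the lowest members, GPT2, SLC1A3 and GLUL, was the same in both groups. In CPM, however, GLUL was above SLC1A3 (13.1 against 6.47 with control-siRNA). Their order in TPM thus rests on the scaling for length, and the assignment of reads to transcripts of unlike length was uncertain.

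**Figure D3:**
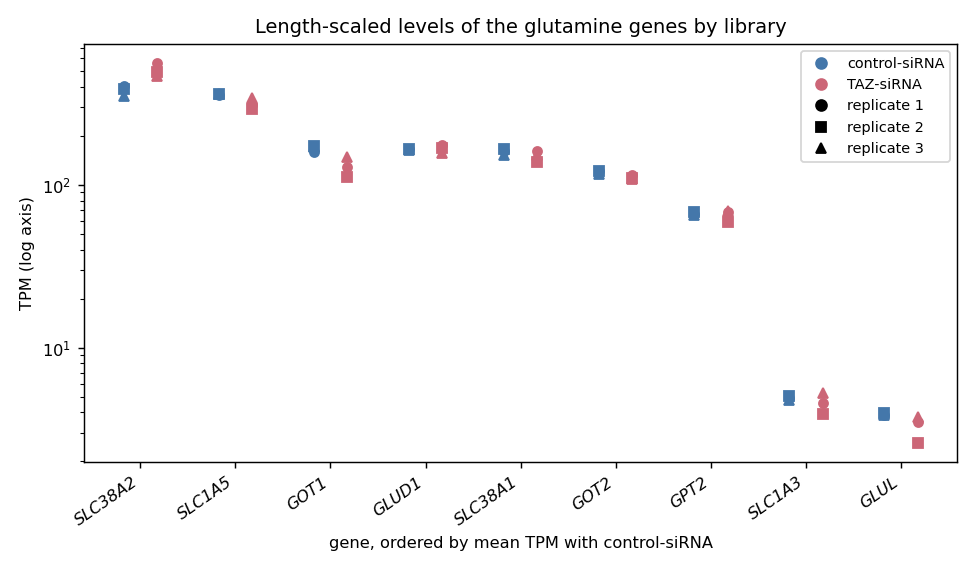
Deposited TPM (log axis) of the 9 glutamine genes in each library, ordered by the mean with control-siRNA; colour gives the group and shape the replicate. The transporters SLC38A2 and SLC1A5 are at the top (351 to 405 and 356 to 364 TPM with control-siRNA), and SLC1A3 and GLUL are under 6 TPM in all 6 libraries.

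Transcripts within the members are given as shares of the gene's TPM, as a description, because the assignment of reads among transcripts of 1 gene was uncertain. GOT1 has a single transcript in the table, GOT2 was almost wholly NM_002080 (98.8 ± 0.27% with control-siRNA and 99.1 ± 0.24% with TAZ-siRNA), GPT2 was NM_133443 (99.2 and 98.9%) and SLC1A5 was NM_005628 (97.3 and 97.4%). For SLC38A2, NM_018976 held 81.4 ± 2.6% with control-siRNA and 84.3 ± 1.2% with TAZ-siRNA, and NM_001307936 most of the rest. Its NM_018976 rose from 322, 312 and 296 TPM to 480, 412 and 394 TPM, while NM_001307936 was at 53.5 to 81.8 and at 69.9 to 82.8 TPM. For SLC38A1, NM_001278388 was at 13, 23 and 26.3% with control-siRNA and at 28.1, 27 and 27.1% with TAZ-siRNA. For SLC1A3, the short transcript NM_001166696 of 1352 bases, which ends far before the others at chr5:36606355-36609299, held 42.2, 41.2 and 35.6% with control-siRNA and 27.4, 34.7 and 32.7% with TAZ-siRNA.

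The TAZ-siRNA libraries differed among themselves more than the control-siRNA libraries in every member. The coefficient of variation of the members' CPM was 0.282 to 6.34% (median 2.47%) with control-siRNA and 1.87 to 18.7% (median 11.3%) with TAZ-siRNA. Over all genes tested the medians were 5.57 and 8.30%, and the value was higher with TAZ-siRNA in 65.7% of genes, against 9 of 9 members. TAZ-siRNA replicate 2 was the lowest of its group in 9 of 9 members, as in 31.6% of all genes tested, and replicate 3 was the highest in 7, as in 37.8% of all genes. Both held for 7 members (GLUL, GOT1, GOT2, GPT2, SLC1A5, SLC38A1 and SLC1A3) and for 21.5% of all genes. In GOT1 the log2 ratios of the TAZ-siRNA libraries 1, 2 and 3 to the control-siRNA mean were −0.48, −0.68 and −0.15. In SLC1A5 they were −0.30, −0.39 and −0.051. SLC38A2 went another way, with 0.46, 0.29 and 0.31, so that replicates 2 and 3 were alike. ASNS, the asparagine synthetase and a well known ATF4 target, had −0.75, −1.03 and −0.25, and PSAT1, the phosphoserine aminotransferase, −0.35, −0.55 and −0.11, the same order as in GOT1. Of the 44 related genes tested, 22 (50%) had this order. Others did not, such as PFAS at −0.30, −0.22 and −0.50. WWTR1 itself did not follow this order, at −3.46, −3.49 and −3.66. What the TAZ-siRNA libraries differ in was not tested.

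**Figure D4:**
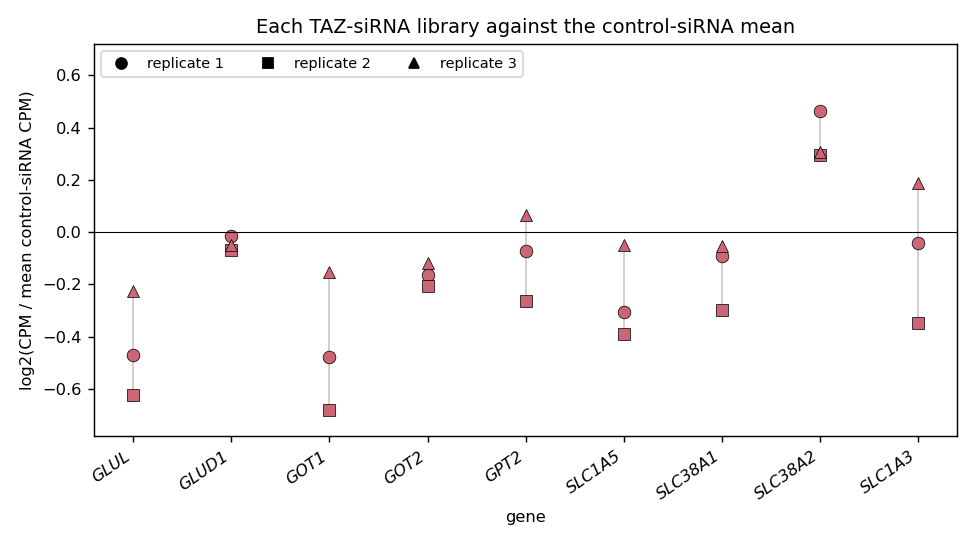
Log2 ratio of the CPM of each TAZ-siRNA library to the mean CPM of the 3 control-siRNA libraries for the 9 glutamine genes; shapes give the replicate, grey lines join the lowest to the highest and the line at 0 is the control-siRNA mean. Replicate 2 is lowest in all 9 genes and replicate 3 highest in 7, with the widest spread in GOT1 (−0.68 to −0.15) and SLC1A3 (−0.35 to 0.19).

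The number of members called depended on which libraries entered. With all 6 libraries 4 members were called, and without TAZ-siRNA replicate 3 there were 7, all except GLUD1 and SLC1A3, where 33.7% of all genes were called. The count was 2 without TAZ-siRNA replicate 2 (15.3% of all genes), 1 without TAZ-siRNA replicate 1 (11.9%), and 2, 2 and 1 without control-siRNA replicate 1, 2 or 3 (13.1, 11.2 and 12.1%). SLC38A2 was in every one of these counts, and with GLUL it made up those of 2. GPT2 (−0.16, adjusted p = 0.0301) and SLC38A1 (−0.19, adjusted p = 0.0255) were called only without TAZ-siRNA replicate 3. Other ways of testing changed the count less: 5 members with DESeq2 (23.7% of all genes), 3 with upper-quartile factors (22.0%), 4 with no filter on low counts (12.6%), 4 with at least 10 counts in every library (24.6%), 5 with the replicate number as a block (30.2%), 4 and 4 with limma on log2(FPKM + 1) and log2(FPKM + 0.1) (16.6 and 16.7%), and 5 when GC content and length were corrected for (29.8%). GOT1 was lost with upper-quartile factors (adjusted p = 0.0545) and with no filter (0.0857), GLUL was lost with both limma fits, and SLC1A5 was gained in the counts of 5, with no filter and with both limma fits.

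**Figure D5:**
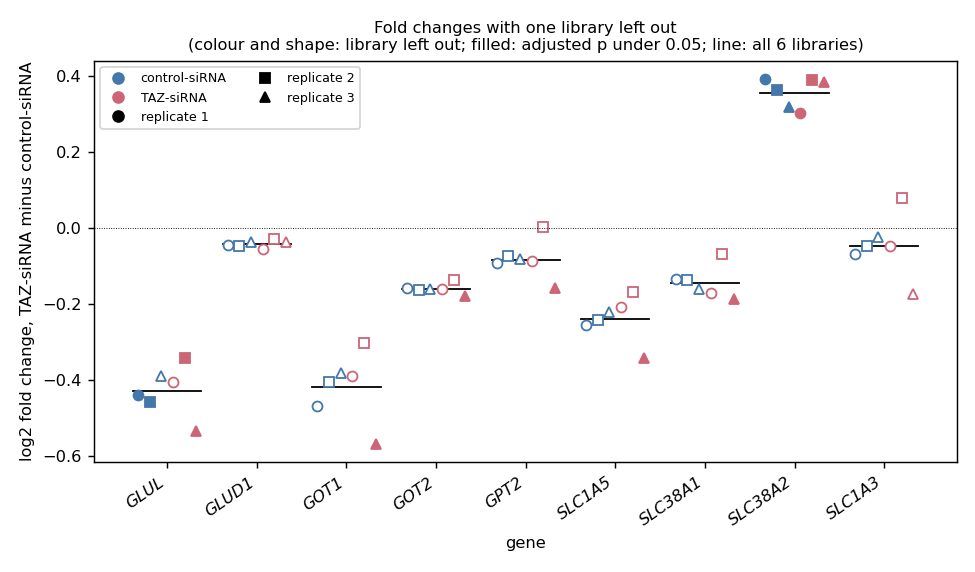
Log2 fold change (TAZ-siRNA minus control-siRNA) of each glutamine gene with 1 library left out; colour and shape give the library left out, filled points an adjusted p under 0.05 by edgeR, and the short lines the value with all 6 libraries. SLC38A2 is filled in all 6 fits (0.30 to 0.39), whereas GOT1, GOT2, GPT2, SLC1A5 and SLC38A1 are filled only without TAZ-siRNA replicate 3.

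The other genes of glutamine, glutamate and aspartate handling were taken from a list of 53 genes, of which 44 were tested and 9 had too few counts. Of the 44, 6 were higher and 14 were lower, 45.5% in all, against 22.1% of all genes tested, and the groups did not overlap in 27, against 39.6% of all genes. This list, too, was chosen with earlier results of these data known, so its shares are a description and not a test. The median log2 fold change was −0.20 (range −0.65 to 0.85), and 3 genes had an estimate past 1.5-fold, of which SLC6A19 was called. All 14 called falls were thus smaller than 1.5-fold, as in the members. The lowest estimate, −0.65 in PYCR1, had an adjusted p of 0.0522 by edgeR and so missed the threshold. Without TAZ-siRNA replicate 3 the count was 27 (where 33.7% of all genes were called), and with any other library left out it was 9 to 13 (11.2 to 15.3% of all genes), so that the count moved with that of all genes.

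Enzymes that work on glutamine or glutamate directly gave 0 higher and 2 lower of 5 further dehydrogenases and aminotransferases, where 11.9% of all genes tested were higher and 10.2% lower. The groups by role are small, and their counts are descriptions. GLS2, the liver-type glutaminase, and GPT, the cytosolic alanine aminotransferase, had at most 7 and 9 counts in a library and were not tested. GLUD2, a retrocopy of GLUD1, had an adjusted p of 0.298. PSAT1, which uses glutamate to make serine, fell from 343 ± 9.0 to 274 ± 42.6 CPM (log2 fold change −0.33, adjusted p = 0.0351). With a library left out PSAT1 was called only without TAZ-siRNA replicate 3 (−0.44, adjusted p = 4.48e-05), and the other adjusted p went up to 0.124.

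Of the 10 amidotransferases, which take nitrogen from glutamine, 1 was higher and 3 were lower (22.1% of all genes were called). CTPS1, the CTP synthase, fell from 47.5 ± 0.56 to 35.6 ± 2.7 CPM (log2 fold change −0.42, adjusted p = 0.0014), and PFAS, an enzyme of purine synthesis, from 57.0 ± 1.9 to 45.3 ± 4.4 CPM (−0.33, adjusted p = 0.00818). Both were called in all 6 fits with a library left out. GFPT2, of hexosamine synthesis, rose from 215 ± 1.9 to 239.9 ± 4.0 CPM (0.16, adjusted p = 0.0321), a call that was lost with no filter on low counts (0.0594) and, among the fits with a library left out, kept only without TAZ-siRNA replicate 2 (0.0475) or replicate 3 (0.0149). ASNS was at 327 ± 25.8 CPM with control-siRNA and at 210 ± 59 CPM with TAZ-siRNA, lower in every TAZ-siRNA library, yet with an adjusted p of 0.0782 (log2 fold change −0.64 ± 0.20). It passed without TAZ-siRNA replicate 3 (−0.88, adjusted p = 0.000428), with DESeq2 (0.0399) and with limma on log2(FPKM + 1) (0.0385).

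Among the other plasma membrane transporters, 9 were tested, with 2 higher and 2 lower (22.1% of all genes were called). SLC1A1 (EAAT3), a glutamate and cysteine importer of the same family as SLC1A3, rose from 12.5 ± 0.29 to 17.4 ± 1.3 CPM (log2 fold change 0.48, adjusted p = 0.00158, called in all 6 fits with a library left out). SLC6A19, a transporter best known from kidney and intestine, was low and rose from 1.35 ± 0.38 to 2.47 ± 0.68 CPM (0.85, adjusted p = 0.0361), and its estimate was 0.65 to 1.07 with a library left out. SLC7A5 (LAT1), an exchanger that can trade glutamine for leucine, fell from 675 ± 5.3 to 550 ± 62.9 CPM (−0.30, adjusted p = 0.0215), while its partner subunit SLC3A2 was at 477 ± 28.7 and 440 ± 81.2 CPM (−0.12, adjusted p = 0.512). SLC3A2 was at −0.27 (adjusted p = 0.00281) without TAZ-siRNA replicate 3 and at −0.012 (0.954) without replicate 2. SLC7A11, the cystine importer that exports glutamate, fell from 455 ± 22.6 to 380 ± 41.7 CPM (−0.26, adjusted p = 0.0409). Without TAZ-siRNA replicate 2 the SLC7A11 estimate was −0.17 (adjusted p = 0.104). With a library left out, SLC6A19, SLC7A5 and SLC7A11 were each called only without TAZ-siRNA replicate 3 (adjusted p = 0.00114, 5.49e-05 and 0.0152), and their other adjusted p went up to 0.146, 0.0915 and 0.16. SLC6A19 and SLC7A11 also lost their calls with limma on log2(FPKM + 1) (adjusted p = 0.0757 and 0.06) and on log2(FPKM + 0.1) (0.0821 and 0.0536).

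The counts for the remaining roles stand against the same 22.1% of all genes. Inside the cell, SLC38A7, a lysosomal glutamine exporter, was the called gene of 2 lysosomal transporters and rose from 14.3 ± 0.99 to 19.6 ± 0.39 CPM (log2 fold change 0.45, adjusted p = 0.00175). Of 6 mitochondrial carriers and shuttle enzymes 2 were higher and 1 was lower. SLC25A12 and SLC25A13, the aspartate-glutamate carriers that work with GOT1 and GOT2 in the malate-aspartate shuttle, rose from 24.5 ± 0.69 to 30.3 ± 1.2 CPM (0.31, adjusted p = 0.00441) and from 62.3 ± 0.33 to 75.8 ± 1.3 CPM (0.28, adjusted p = 0.00194). SLC38A7, SLC25A12 and SLC25A13 were each called in all 6 fits with a library left out. Of 7 genes that link glutamate with proline or glutathione, 0 were higher and 3 were lower, among them PYCR3 (−0.33, adjusted p = 0.0392). When a library was left out, PYCR3 was called only without TAZ-siRNA replicate 3 (0.00576, others up to 0.133). The PYCR3 call was also lost with both limma fits (0.0649 and 0.0727). Of 5 enzymes that use aspartate, 0 were higher and 3 were lower. ASS1 and ASL, which build arginine from citrulline and aspartate, fell from 156 ± 13.3 to 119 ± 18.4 CPM (−0.39, adjusted p = 0.0318) and from 20.7 ± 1.2 to 15.9 ± 0.45 CPM (−0.38, adjusted p = 0.00346). ASL was called in all 6 fits with a library left out, and ASS1 only without control-siRNA replicate 1 (adjusted p = 0.0316) or TAZ-siRNA replicate 3 (4.95e-05).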

How the data were processed

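RNA from 6 preparations of MDA-MB-231 cells (3 per group) was sequenced in paired reads of 100 bases. The authors' aligner was HISAT2 (GRCh38), their quantifier was StringTie (RefSeq annotation), and the submitters' processing notes also list Bowtie 0.12.2 and, beside GRCh38, the mouse build mm8, whose role is not given in the sources used here. The deposited estimated counts are whole numbers per gene and transcript, which StringTie's coverage gives. For FPKM the authors scaled coverage by length and library size, and for TPM by length and to a common sum in each library. The labels name both a stranded and an unstranded TruSeq kit, and whether counting used strand is not given in the sources used here, so a gene and its antisense partner may share reads. The labels do not say that the preparations were separate cultures of separate days, so p-values measure the spread between these libraries only. Titles number the replicates differently from the columns, whose numbers were used.

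Counts were compared with edgeR 4.0.16 (R 4.3.3) after filterByExpr (minimum count 10) and TMM normalization, with robust quasi-likelihood tests and Benjamini-Hochberg adjustment over the 16966 genes tested, as control-siRNA against TAZ-siRNA without a block. DESeq2 1.42.0, limma 3.58.1, other factors and filters, a replicate block, a stricter threshold of 0.01 and leaving out each library were alternatives, and a correction for GC content and length (splines with 5 degrees of freedom, values for 89.7% of genes tested and 100% of members) was chosen after seeing the data. Scripts were tested on simulated data. The members and lists were chosen with earlier results of these data known. Named are all 9 members, WWTR1, the markers, GLS2, GLUD2, GPT, ASNS, PSAT1, SLC7A5, SLC3A2 and SLC7A11, and, among called genes of the list of 53 with a mean of at least 1 CPM, the 6 largest rises and 6 largest falls. PYCR1 is named in addition, for the lowest estimate of that list. Promoters came from RefSeq (GRCh38.p14), matched by symbol. Some planned results are not reported here.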

Additional observations from a re-analysis of the deposited data

How the results depend on the processing

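The number of members called was 4 with all libraries and 1 to 7 when each library was left out in turn, and 1 (SLC38A2) at an adjusted p under 0.01. For the 44 tested genes of the list the number was 20, with 9 to 27 when each library was left out and 9 under 0.01, and for all genes it was 3749, with 1937 to 5928 and 1720. Among the libraries left out, only TAZ-siRNA replicate 3 raised these counts, and the cause was not tested. With the replicate number as a replicate block, 5 members (SLC1A5 in addition), 25 genes of the list and 5122 of all genes were called. The deviations of same-numbered libraries correlated at 0.039, 0.034 and 0.21, and the last, for replicate 3, was the highest of any pair. Control-siRNA replicate 1 correlated best with TAZ-siRNA replicate 2 (0.062), and control-siRNA replicate 2 with TAZ-siRNA replicate 1 (0.13). These values do not settle whether the numbers pair the libraries, and the main comparison was run without a block. The direction reversed without TAZ-siRNA replicate 2 for GPT2 (log2 fold changes −0.16 to 0.0024 over the libraries left out) and SLC1A3 (−0.17 to 0.080). Neither reversed value was called. For single genes, 293 of the values under alternatives kept their direction and side of the threshold, 13 passed it in addition, 56 no longer passed and 2 reversed. Among the members, counts were lowest for SLC1A3 (251 to 458) and GLUL (420 to 860), whose values are therefore the least precise by counting.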
